A study of Mus musculus with 20 samples.

Results

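The 10 LLC-1 tumors that received an adenoviral vector carrying interferon beta (IFNbeta) were compared with the 10 tumors that received none. LLC-1 is a Lewis lung carcinoma line, implanted here in C57Bl/6 mice, and all 20 arrays of the study enter the comparison. The tumors with IFNbeta fell into 5 given the IFNbeta vector alone and 5 given p19Arf plus IFNbeta vectors (p19Arf+IFNbeta). The tumors without IFNbeta fell into 5 given the eGFP control vector and 5 given the p19Arf vector alone, where p19Arf is the tumor suppressor encoded by Cdkn2a that acts upstream of p53. Every tumor, controls included, therefore carried an adenoviral vector, injected into the tumor 5 times at intervals of 48 h in 25 µl that held 10 to the power 8 infectious units. Age and sex of the mice, the promoters of the vectors and the time of harvest were not given in the sources used here. Membership was read from the titles, so no measured value chose the arrays. The difference was estimated with the presence of p19Arf as a covariate, and the values are log2 expression, on which a difference of 1 is a 2-fold change. Total RNA of whole tumors was measured, so a change in the number of cells of a type and a change in RNA per cell cannot be told apart. Nothing in the labels ties each array to a separate animal, and the p-values measure the spread between these samples.

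Interferon beta is a type I interferon, a secreted cytokine made when cells sense viral or other foreign nucleic acid. It binds the Ifnar1 and Ifnar2 receptor chains, which act through the kinases Jak1 and Tyk2 on transcription factors that include Stat2 and Irf9. These bind interferon-stimulated response elements in the promoters of interferon-stimulated genes (ISGs), whose products restrict viruses and sharpen nucleic acid sensing. In tumors the cytokine is also known for acting on dendritic cells, T cells and natural killer cells.

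Of the vector genes themselves, Ifnb1 was 5.81, 6.06 and 6.65 (lowest, median and highest array) in tumors with IFNbeta, against 5.61, 6.07 and 6.25 in tumors without it, a difference of 0.07 (SE 0.09, limma adjusted p = 0.955). Cdkn2a was 7.25, 7.46 and 7.82 in tumors with IFNbeta, against 7.35, 7.44 and 7.81 in tumors without it, a difference of -0.04 (SE 0.07, limma adjusted p = 0.955). The sources do not place these probe sets against the vector inserts, and so neither gene checks the labels. Array medians ran from 7.49 to 7.61, and the correlation between arrays was 0.951 to 0.994 within groups and 0.949 to 0.995 between groups. The epithelial markers Krt8, Krt18 and Epcam averaged 7.73, 7.16 and 6.42 in tumors with IFNbeta, against 7.78, 7.17 and 6.40 in tumors without it. The 10 measured tumor and epithelial genes had a median difference of 0.01. Without detection calls, these values do not say whether such a gene was expressed. One array stood apart in skin genes, IFNbeta replicate 3, whose mean over 12 epidermal genes was 9.04 where the other 19 arrays lay between 6.55 and 7.39.

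No gene passed an adjusted p of 0.05 for the IFNbeta difference (0 of 19938 genes, 0%, limma with Benjamini-Hochberg adjustment), and the smallest adjusted p was 0.367. At an unadjusted p under 0.05 there were 1024 genes (5.14%), of which 579 were higher (2.9%) and 445 lower (2.23%) in tumors with IFNbeta. With each array centred on its median, the split was 472 higher and 654 lower. No gene had all 10 arrays with IFNbeta beyond all 10 without it (0%). When limma weighted the arrays by their quality, 74 genes (0.371%) passed as higher and 15 (0.0752%) as lower in tumors with IFNbeta. The same weighting gave its lowest weights to p19Arf+IFNbeta replicate 4 (0.256) and p19Arf replicate 2 (0.34). The genes named from here on did not pass without weights, and their values stand as measurements.

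Among the 12 higher genes of smallest p were several ISGs and genes of myeloid cells, described here in turn. Ms4a4d, a member of the Ms4a family of membrane-spanning proteins, was 7.58, 8.23 and 8.57 in tumors with IFNbeta, against 6.99, 7.62 and 7.85 in tumors without it. Its difference was 0.58 (SE 0.12, limma adjusted p = 0.367), and 7 of the 10 tumors with IFNbeta lay above every tumor without it. Ifi213, of the PYHIN family of nuclear proteins that includes DNA sensors, was 7.84, 8.51 and 9.39 in tumors with IFNbeta, against 7.28, 8.08 and 8.23 in tumors without it. For this gene 8 of 10 tumors with IFNbeta lay above the other group, and the difference was 0.60 (SE 0.13, limma adjusted p = 0.367). Phf11d, a PHD finger gene, was 8.30, 8.80 and 9.96 in tumors with IFNbeta, against 7.89, 8.36 and 8.60 in tumors without it, a difference of 0.55 (SE 0.12). The groups overlapped in all 3 genes, and the low arrays among the tumors with IFNbeta were mainly those that also received p19Arf.

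Ifit3b, an antiviral protein of the Ifit family that binds foreign RNA together with its relatives, was 5.59, 6.14 and 7.45 in tumors with IFNbeta, against 5.07, 5.54 and 6.08 in tumors without it, a difference of 0.62 (SE 0.14). Its highest value was that of IFNbeta replicate 3. Trim30d, a tripartite motif gene, was 8.96, 9.23 and 10.03 in tumors with IFNbeta, against 8.14, 8.86 and 9.11 in tumors without it, a difference of 0.48 (SE 0.11, limma adjusted p = 0.394). Its relative Trim30a, a known brake on Toll-like receptor signalling, was 10.93, 11.09 and 11.65 in tumors with IFNbeta, against 10.59, 10.80 and 11.02 in tumors without it, a difference of 0.33 (SE 0.08). In both Trim30 genes 7 of 10 tumors with IFNbeta lay above all tumors without it. Ms4a4d, Ifi213, Phf11d, Ifit3b, Trim30d and Trim30a passed when arrays were weighted.

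**Figure D1:**
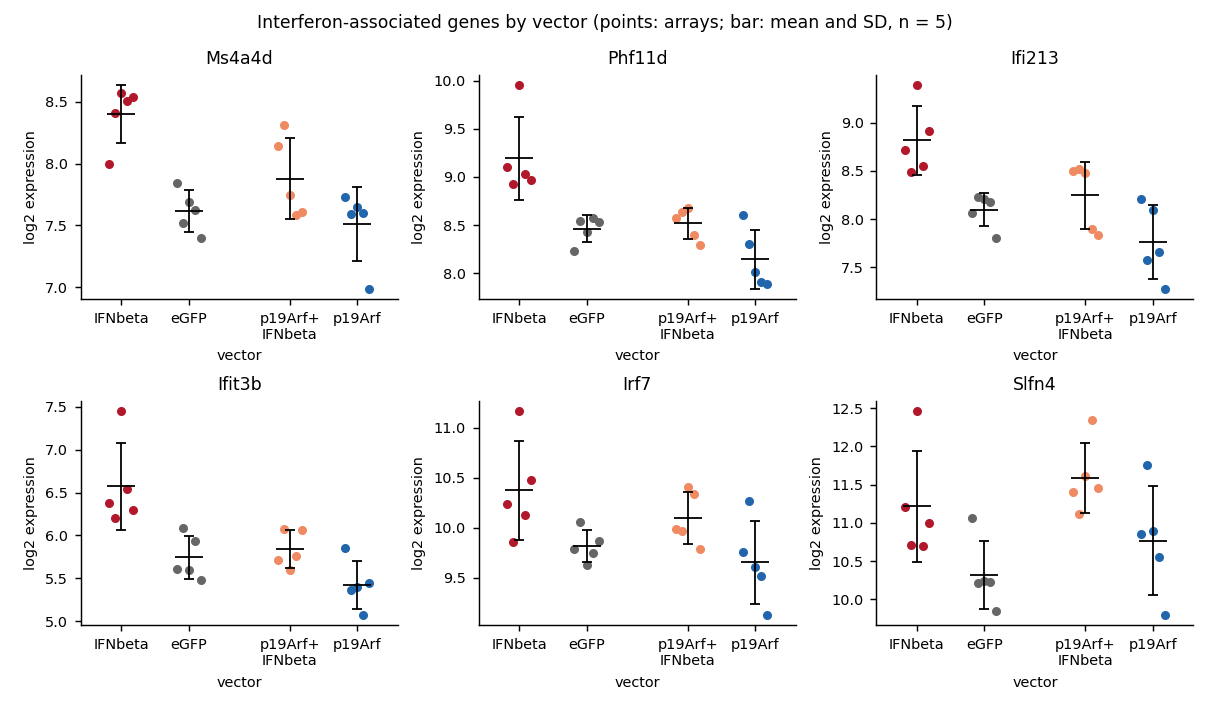
Log2 expression (y axis) of 6 interferon-associated genes by vector (x axis); points are arrays, bars the mean and SD of 5. In Ms4a4d the IFNbeta arrays lie above every eGFP array, and the p19Arf+IFNbeta arrays overlap with the p19Arf arrays.

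Among the 39 measured ISG antiviral effectors, 38 had a higher mean in tumors with IFNbeta, where 41.5% of all genes and 51.3% of genes above the median level did. The median difference of the list was 0.20, against -0.02 for all genes, and 16 members had an unadjusted p under 0.05 as higher and 0 as lower, against 2.9% and 2.23% of all genes. No member passed the adjusted threshold. The mean of the list per array was 9.66, 10.01 and 10.49 in tumors with IFNbeta, against 9.53, 9.83 and 9.93 in tumors without it. The highest of these was IFNbeta replicate 3, and without it the median difference of the list was 0.155. Ifit3, Mx1 and Rsad2 differed by 0.38 (SE 0.14), 0.37 (SE 0.16) and 0.31 (SE 0.14). Without IFNbeta replicate 3 the difference of Mx1 was 0.24. Oas2 and Oas3, which make the 2-5A signal for RNase L, differed by 0.47 (SE 0.17) and 0.38 (SE 0.12). Ifit1 and Ifit2 differed by 0.17 (SE 0.12) and 0.11 (SE 0.13), and by 0.10 and 0.06 without the same array.

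Other branches of the response were described by the same counts. Over all genes, 41.5% had a higher mean, and 2.9% were higher and 2.23% lower at unadjusted p under 0.05. Of 7 genes listed for the ISG15 system, a ubiquitin-like tag with its enzymes and related genes, 6 were measured, without Isg15 itself. All 6 had a higher mean, with a median of 0.15 and 2 members at unadjusted p under 0.05. Of 15 nucleic acid sensors and adaptors, 14 were higher with a median of 0.14, and Zbp1, a sensor of left-handed nucleic acid, was 9.87, 10.14 and 10.71 in tumors with IFNbeta, against 9.26, 9.81 and 10.12 in tumors without it. Of 17 guanylate-binding proteins and related GTPases listed, 8 were measured. All 8 were higher, with a median of 0.22, and Gbp5 differed by 0.31 (SE 0.11). All 7 Schlafen genes were higher, with a median of 0.32 and 6 members at unadjusted p under 0.05. Slfn4, a Schlafen gene of myeloid cells, was 10.70, 11.31 and 12.46 in tumors with IFNbeta, against 9.79, 10.40 and 11.76 in tumors without it, a difference of 0.86 (SE 0.23, limma adjusted p = 0.583). Its groups overlapped widely, with 2 of 10 tumors with IFNbeta above all without it. Slfn1 differed by 0.45 (SE 0.14).

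Of the 22 genes of the receptors and their signalling chain, 18 were higher with a median of 0.07 (0.11 without p19Arf+IFNbeta replicate 4). At unadjusted p under 0.05, 5 of them were higher, against 2.9% of all genes. A higher mean was seen in 41.5% of all genes and 51.3% of genes above the median level. Irf7, the transcription factor that amplifies type I interferon production, was 9.79, 10.18 and 11.17 in tumors with IFNbeta, against 9.12, 9.75 and 10.27 in tumors without it, a difference of 0.50 (SE 0.14, limma adjusted p = 0.64). Stat2 differed by 0.27 (SE 0.12) and Irf9 by 0.15 (SE 0.07). The receptor chains Ifnar1 and Ifnar2 differed by -0.02 (SE 0.07) and 0.15 (SE 0.10), and Jak1 by -0.06 (SE 0.11). Without p19Arf+IFNbeta replicate 4, Ifnar1 differed by 0.02 and Jak1 by 0.003. MHC class I and peptide loading genes, which display peptides to CD8 T cells, were higher in 10 of 15 members with a median of 0.05 and none at unadjusted p under 0.05, in tumors with as against without IFNbeta. Their median was 0.03 without IFNbeta replicate 3.

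The promoters of 5 interferon-associated genes are shown because they carry, or in Ms4a4d lack, the core of the interferon-stimulated response element. They are RefSeq windows of build GRCm38.p6 from 250 bases before to 50 bases after the gene start, read 5′ to 3′ in the sense of the gene, with matches to GAAA, any 2 bases and GAAA on either strand in capitals. Ifit3b lies at chr19:34607707-34608006 (plus strand), Ifi213 at chr1:173599223-173599522 (minus strand), Trim30d at chr7:104507800-104508099 (minus strand), Gbp5 at chr3:142496684-142496983 (plus strand) and Ms4a4d at chr19:11536544-11536843 (plus strand).
Ifit3b: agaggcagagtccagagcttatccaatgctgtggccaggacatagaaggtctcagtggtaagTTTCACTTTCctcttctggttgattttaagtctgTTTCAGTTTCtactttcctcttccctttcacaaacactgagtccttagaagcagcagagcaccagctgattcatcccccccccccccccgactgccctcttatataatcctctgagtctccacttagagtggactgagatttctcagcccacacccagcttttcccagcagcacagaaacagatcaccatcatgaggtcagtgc
Ifi213: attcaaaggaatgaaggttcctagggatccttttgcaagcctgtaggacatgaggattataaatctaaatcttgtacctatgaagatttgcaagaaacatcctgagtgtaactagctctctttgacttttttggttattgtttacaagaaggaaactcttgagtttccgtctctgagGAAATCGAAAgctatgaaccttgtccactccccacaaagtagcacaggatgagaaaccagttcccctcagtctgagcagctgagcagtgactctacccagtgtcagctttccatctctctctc
Trim30d: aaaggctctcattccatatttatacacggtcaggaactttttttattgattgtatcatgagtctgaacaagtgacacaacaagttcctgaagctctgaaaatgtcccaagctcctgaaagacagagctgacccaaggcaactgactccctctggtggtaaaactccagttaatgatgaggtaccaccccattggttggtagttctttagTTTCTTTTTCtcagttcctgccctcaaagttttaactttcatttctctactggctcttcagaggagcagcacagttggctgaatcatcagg
Gbp5: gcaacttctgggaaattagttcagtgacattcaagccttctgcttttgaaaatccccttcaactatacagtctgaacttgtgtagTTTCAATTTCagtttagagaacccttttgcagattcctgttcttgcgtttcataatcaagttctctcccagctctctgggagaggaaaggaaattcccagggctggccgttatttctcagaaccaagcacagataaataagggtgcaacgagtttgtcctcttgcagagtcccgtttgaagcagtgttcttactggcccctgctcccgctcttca
Ms4a4d: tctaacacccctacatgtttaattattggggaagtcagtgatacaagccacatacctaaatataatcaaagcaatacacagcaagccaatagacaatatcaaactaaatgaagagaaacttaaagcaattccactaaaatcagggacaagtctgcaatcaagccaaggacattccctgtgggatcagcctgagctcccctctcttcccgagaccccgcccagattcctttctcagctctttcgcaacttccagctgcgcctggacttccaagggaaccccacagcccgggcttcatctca

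The first match began 188 bases before the start in Ifit3b, 165 in Gbp5, 73 in Ifi213 and 41 in Trim30d. Across RefSeq, 3.99% of 27025 genes with a promoter window held the motif. It was present in 13 of 29 ISG antiviral effectors with a window (44.8%), 6 of 12 sensors (50%), 4 of 4 guanylate-binding proteins and related GTPases, and 3 of 7 Schlafen genes (42.9%). Among genes with an unadjusted p under 0.05, 49 of 443 higher genes (11.1%) and 13 of 347 lower genes (3.75%) in tumors with IFNbeta held it. The motif TTCNNNGAA, the core of the gamma-activated sequence, was searched likewise. It was in 9.55% of all genes with a window and 8 of 29 ISG antiviral effectors (27.6%). No Ms4a gene (0 of 10) held the first motif, nor did any of 15 neutrophil, 11 T cell or 19 skeletal muscle genes with a window. Both motifs overlapped in 24 windows of all genes. A match describes the letters of a window and says nothing of binding.

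The ISG values were next read in each arm of the design, without and with p19Arf. Without p19Arf, the mean of the ISG antiviral effectors was 10.08, 10.04, 10.49, 10.04 and 10.22 in IFNbeta tumors, against 9.77, 9.83, 9.82, 9.87 and 9.90 in eGFP tumors. With p19Arf, it was 9.85, 9.98, 9.93, 9.78 and 9.66 in p19Arf+IFNbeta tumors, against 9.93, 9.85, 9.79, 9.54 and 9.53 in p19Arf tumors. The IFNbeta arrays all lay above the eGFP arrays, while the p19Arf+IFNbeta and p19Arf arrays overlapped. The median difference of the list was 0.31 without p19Arf and 0.08 with it, and 37 members were higher without p19Arf and 29 with it. In each arm alone no gene passed the adjusted threshold (0%, limma). Without p19Arf, 1.34% of genes were higher and 1.45% lower at unadjusted p under 0.05, and 44.2% had a higher mean. With p19Arf these shares were 1.83%, 1.24% and 46.9%.

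The difference between the arms was tested gene by gene as the interaction of IFNbeta and p19Arf, and no gene passed (0%, limma). At unadjusted p under 0.05, 0.813% of genes had a larger and 0.492% a smaller difference with p19Arf. Usp18, which removes ISG15 and dampens the receptor, differed by 0.59 (SE 0.17) without p19Arf and 0.03 (SE 0.17) with it. Cmpk2, a nucleotide kinase induced by interferon, differed by 0.51 without p19Arf and -0.11 with it (SE 0.17 each). Oas1a differed by 0.46 without p19Arf and -0.05 with it (SE 0.16 each). These 3 interactions were -0.57, -0.61 and -0.51, each with an adjusted p of 1. Guanylate-binding proteins and related GTPases had close medians in both arms, of 0.20 without p19Arf and 0.24 with it, and 8 of 8 were higher in both arms, where 23.2% of all genes were higher in both and 32% lower in both.

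Over all genes, list members included, the arms, which share no arrays, can be read against each other. Of the 268 genes higher at unadjusted p under 0.05 without p19Arf, 225 (84%) had a higher mean with p19Arf too, where 46.9% of all genes did. Of the 289 lower genes, 183 (63.3%) had a lower mean with p19Arf, where 53.1% of all genes did. Chosen the other way, 281 of 365 higher genes (77%) and 178 of 247 lower genes (72.1%) had the same sign without p19Arf, where 44.2% and 55.8% of all genes did. Genes are not independent of each other, and the correlation of both differences across 19938 genes was 0.244.

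**Figure D2:**
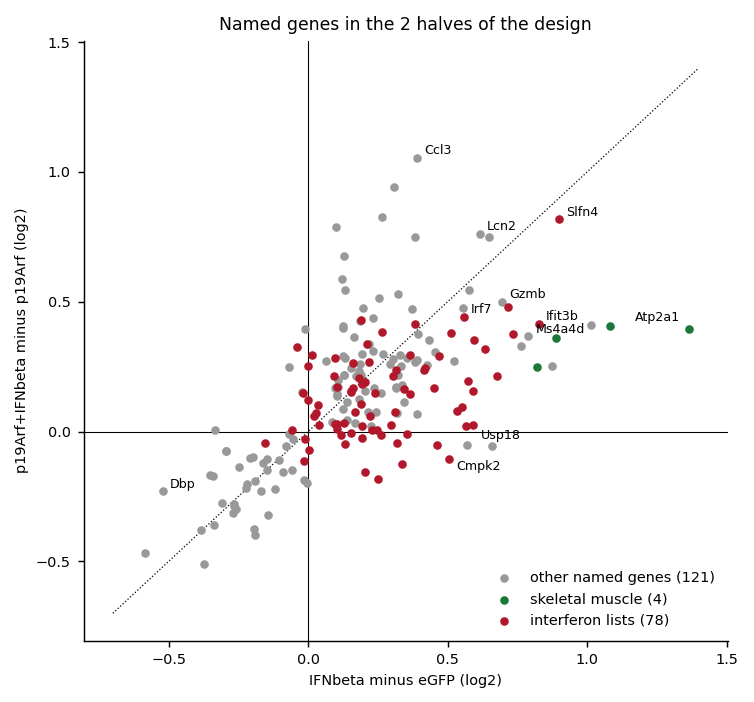
IFNbeta minus eGFP difference (x axis, log2) against p19Arf+IFNbeta minus p19Arf difference (y axis, log2) for 203 named genes, 78 of them from interferon lists and 4 from skeletal muscle; the dotted line marks equal differences. Many genes were picked by the difference over both arms, which places them along the diagonal. Members of the ISG antiviral effector, ISG15 and receptor lists were all named, whatever their difference. A larger difference without p19Arf is seen in 56 of the 78 interferon genes and 60 of the 121 other named genes.

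Genes of neutrophils and inflammatory mediators were next. Lcn2, which withholds iron from bacteria and is stored in neutrophil granules, was 8.41, 8.89 and 9.74 in tumors with IFNbeta, against 7.68, 8.30 and 8.65 in tumors without it, a difference of 0.69 (SE 0.15, limma adjusted p = 0.367). Mmp8, the neutrophil collagenase, was 6.92, 7.72 and 8.24 in tumors with IFNbeta, against 6.55, 6.96 and 7.60 in tumors without it, a difference of 0.70 (SE 0.16). Both were of similar size without p19Arf (0.61 and 0.65) and with it (0.76 and 0.75). Mmp9, also of neutrophils and macrophages, ran the other way: it was 10.29, 11.48 and 11.95 in tumors with IFNbeta, against 10.38, 12.06 and 12.33 in tumors without it. Of 16 neutrophil genes 10 were higher, with a median of 0.06 (0.03 without p19Arf+IFNbeta replicate 4), 4 at unadjusted p under 0.05 as higher and 1 as lower. The shares over all genes were 41.5%, 2.9% and 2.23%, and 51.3% of genes above the median level had a higher mean. The defining markers Ly6g and S100a8 differed by 0.17 and -0.12.

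Ccl3, a chemokine for monocytes and T cells, was 10.95, 11.36 and 12.55 in tumors with IFNbeta, against 10.21, 10.71 and 11.17 in tumors without it, a difference of 0.72 (SE 0.16, limma adjusted p = 0.367). It was larger with p19Arf (1.05, SE 0.21) than without (0.39, SE 0.21), an interaction of 0.66 with an adjusted p of 1. Il1b, the inflammasome cytokine, was 10.46, 10.84 and 12.22 in tumors with IFNbeta, against 9.95, 10.49 and 11.12 in tumors without it. The neutrophil-attracting chemokines Cxcl2 and Cxcl3 differed by 0.62 (SE 0.23) and 0.40 (SE 0.13). Il1rn, which blocks the interleukin-1 receptor, differed by 0.34 (SE 0.09). In all, 19 of 24 inflammatory cytokine and NF-kB genes were higher, with a median of 0.15 and 9 at unadjusted p under 0.05 as higher and 1 as lower. Over all genes, 41.5% had a higher mean, and 2.9% were higher and 2.23% lower at that p. Chemokines had no common direction, with 15 of 28 higher and a median of 0.01.

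T cell and cytotoxic genes were mostly higher. Of 14 cytotoxic effectors all 14 were higher, with a median of 0.34 and 5 at unadjusted p under 0.05 as higher, and 12 were higher in both arms, where 41.5%, 2.9% and 23.2% of all genes were. Without p19Arf+IFNbeta replicate 1 the median was 0.21. Gzmb, a granzyme that triggers caspases in target cells, was 8.12, 9.28 and 10.31 in tumors with IFNbeta, against 8.32, 8.79 and 9.13 in tumors without it, a difference of 0.60 (SE 0.18, limma adjusted p = 0.763). Its p19Arf+IFNbeta arrays were spread over the whole range, from the lowest to the highest value. Of 16 T cell genes 15 were higher, with a median of 0.16. Cd8b1 and Cd8a, which form the CD8 co-receptor, differed by 0.38 (SE 0.12) and 0.28 (SE 0.10). The other defining T cell markers, Cd3e, Cd3d and Cd4, differed by 0.18, 0.09 and 0.02. Il7r, the survival receptor of memory T cells, was 8.35, 8.89 and 9.40 in tumors with IFNbeta, against 7.83, 8.38 and 8.73 in tumors without it, a difference of 0.51 (SE 0.11). Cd274, the checkpoint ligand PD-L1, differed by 0.34 (SE 0.12). The CXCR3 ligands Cxcl9 and Cxcl10, named after their values were seen, differed by -0.05 (SE 0.15) and 0.19 (SE 0.13). The sign for Cxcl9 turned without IFNbeta replicate 3 (0.05), and its difference was -0.13 without p19Arf replicate 2. B cell genes were higher in 3 of 14 members, against 41.5% of all genes, with a median of -0.12 that was -0.02 without p19Arf replicate 3.

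Further genes at the top were Gpnmb, Art3 and Gngt2. Gpnmb, a membrane glycoprotein of macrophages, was 8.77, 9.35 and 9.74 in tumors with IFNbeta, against 8.18, 8.93 and 9.09 in tumors without it, a difference of 0.56 (SE 0.11, limma adjusted p = 0.367). With 9 of 10 tumors with IFNbeta above all tumors without it, it overlapped by 1 array. Gngt2, a G protein gamma subunit, was 7.51, 7.70 and 7.93 in tumors with IFNbeta, against 7.09, 7.45 and 7.59 in tumors without it, also with 9 of 10 above. Art3, of the ADP-ribosyltransferase family, differed by 0.29 (SE 0.06). Cd36 and Plin2, a fatty acid receptor and a lipid droplet coat protein named after their values were seen, differed by 0.67 (SE 0.17) and 0.33 (SE 0.08).

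**Figure D3:**
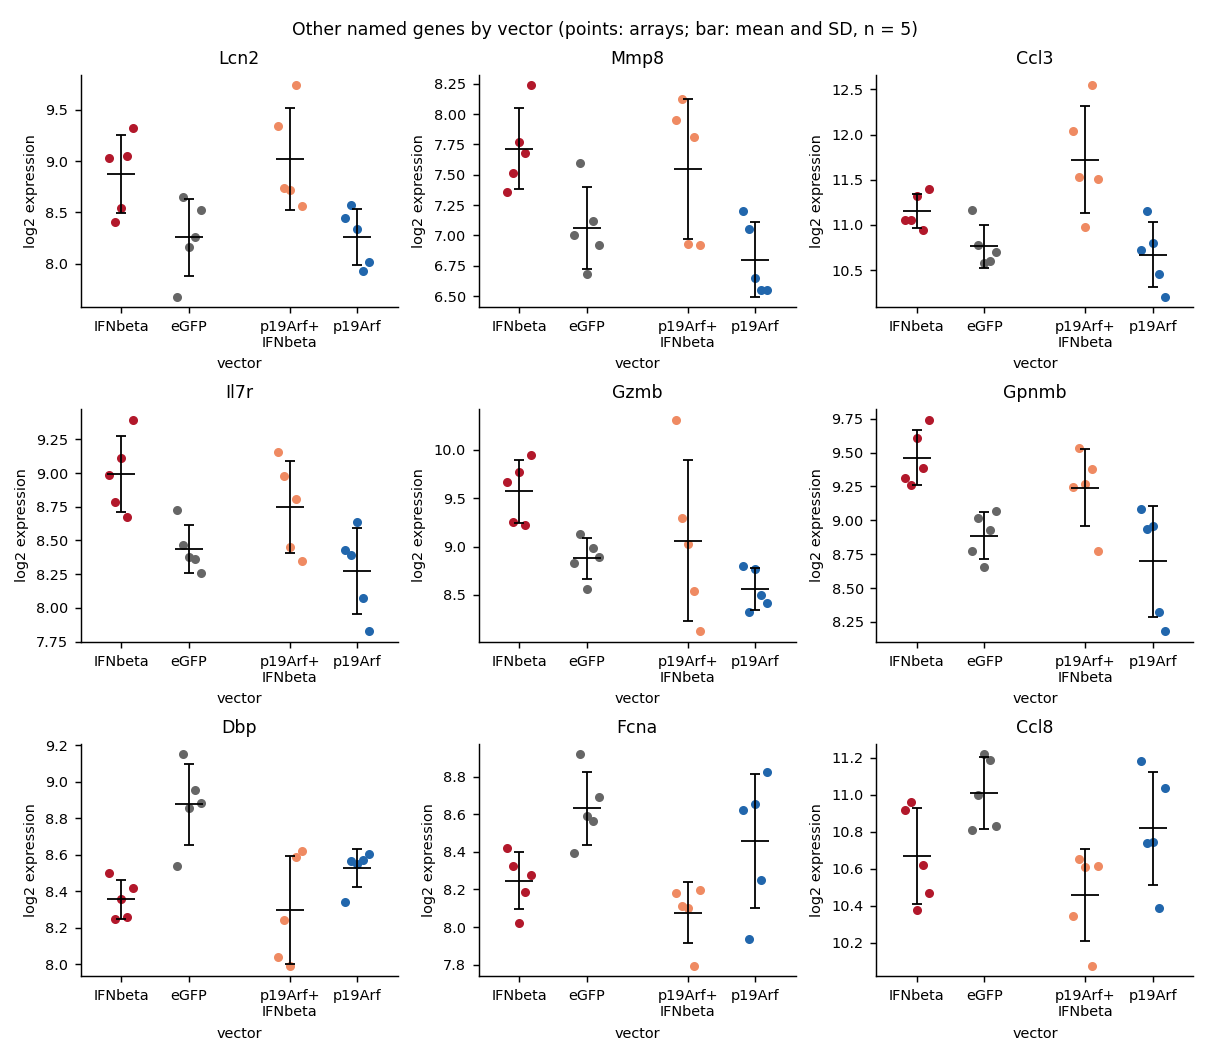
Log2 expression (y axis) of 9 further genes by vector (x axis); points are arrays, bars the mean and SD of 5. Lcn2, Mmp8, Ccl3, Il7r, Gzmb and Gpnmb have higher means in both pairs of vectors with IFNbeta, and Dbp, Fcna and Ccl8 have lower means.

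Among the 12 lower genes of smallest p, differences ran from -0.38 to -0.19. Dbp, a clock-controlled transcription factor, was 7.99, 8.31 and 8.62 in tumors with IFNbeta, against 8.34, 8.59 and 9.15 in tumors without it, a difference of -0.38 (SE 0.09, limma adjusted p = 0.476). Its relative Tef was 8.43, 8.58 and 8.86 in tumors with IFNbeta, against 8.64, 8.79 and 9.07 in tumors without it, a difference of -0.21 (SE 0.06). The clock repressor gene Per3, named after its value was seen, differed by -0.21 (SE 0.09), while Arntl, the clock activator, differed by 0.20 (SE 0.06) and Ciart by 0.24 (SE 0.08). Over the 16 clock genes 8 were higher and the median was 0.00, with 2 higher and 3 lower at unadjusted p under 0.05. The shares over all genes were 41.5%, 2.9% and 2.23%, and 51.3% of genes above the median level had a higher mean. The time of day at which each tumor was taken is not given, so its part in these values was not tested.

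Fcna, a lectin of the complement system made by macrophages, was 7.79, 8.18 and 8.42 in tumors with IFNbeta, against 7.94, 8.61 and 8.92 in tumors without it, a difference of -0.38 (SE 0.10, limma adjusted p = 0.528). Ccl8, a monocyte chemokine, was 10.08, 10.61 and 10.96 in tumors with IFNbeta, against 10.39, 10.91 and 11.22 in tumors without it, a difference of -0.35 (SE 0.10). Mrc1 and Cd163, scavenging receptors of resident-type macrophages, differed by -0.30 (SE 0.11) and -0.29 (SE 0.10), while Fcgr1, the high-affinity Fc receptor, differed by 0.38 (SE 0.12). The macrophage list as a whole had 12 of 22 members higher and a median of 0.01. A higher mean was seen in 41.5% of all genes and 51.3% of genes above the median level. Its markers Adgre1, Csf1r and Cd68 differed by 0.10, -0.03 and -0.04. F2r, the thrombin receptor, differed by -0.28 (SE 0.08). The remaining genes of this ranking were Ctxn2, Optc, Foxa3, Atp13a4, Tex48, Tas2r105 and Otogl, with differences from -0.29 to -0.19.

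Skeletal muscle genes had the highest list median of all 35 lists. Of 24 genes 23 were higher in tumors with IFNbeta, with a median of 0.53 and 13 at unadjusted p under 0.05 as higher, where 41.5% and 2.9% of all genes were. Their mean per array was 7.32, 8.26 and 9.18 in tumors with IFNbeta, against 7.32, 7.57 and 8.63 in tumors without it, so the groups overlapped over most of the range. Atp2a1, the calcium pump of fast muscle, differed by 0.88 (SE 0.34) and Ckm, muscle creatine kinase, by 0.62 (SE 0.25). The list median was 0.80 without p19Arf and 0.24 with it, and 0.39 without IFNbeta replicate 4. With the muscle mean of each array as a covariate, the ISG antiviral effectors had a median of 0.18 and 37 of 39 were higher, against 0.20 and 38 without that covariate. Over all genes, 467 had an unadjusted p under 0.05 with the covariate (353 higher, 114 lower), against 1024 without it (579 higher, 445 lower).

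**Figure D4:**
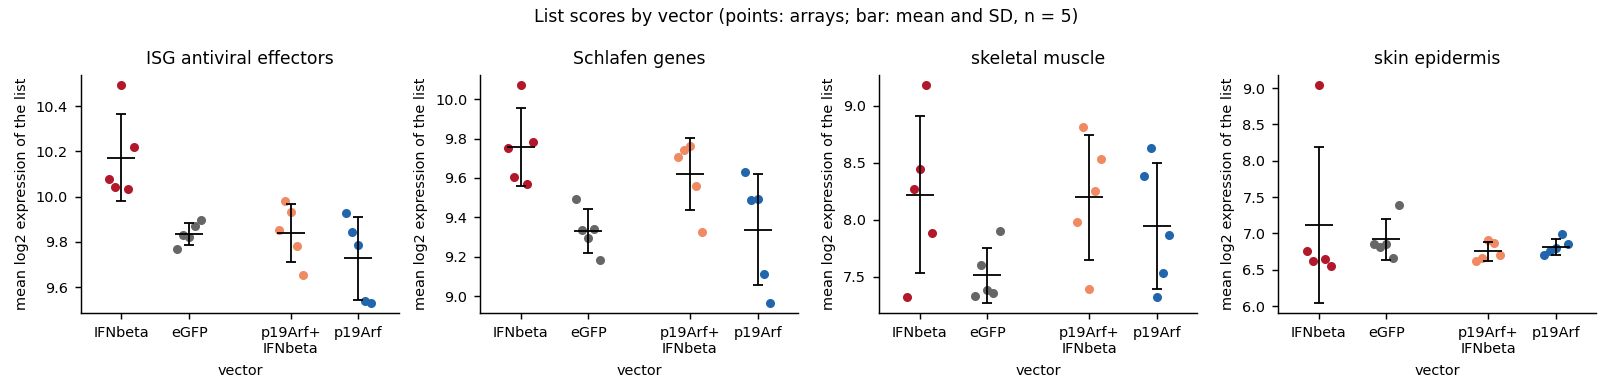
Mean log2 expression of 4 gene lists per array (y axis) by vector (x axis); points are arrays, bars the mean and SD of 5. IFNbeta replicate 3 stands at 9.04 in the epidermal list and 10.49 in the ISG list, and muscle values spread widely within each vector.

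Other lists showed smaller medians. For their counts, 41.5% of all genes and 51.3% of genes above the median level had a higher mean. The p53 target list had 22 of 27 higher, with a median of 0.10 and 7 at unadjusted p under 0.05 as higher (41.5% and 2.9% of all genes), and Btg2 and Mdm2 differed by 0.31 (SE 0.11) and 0.20 (SE 0.08). Fibroblast and matrix genes had 17 of 21 higher, with a median of 0.11 that was 0.00 without p19Arf and 0.28 with it, and 0.04 without p19Arf+IFNbeta replicate 1. Cell cycle genes had 8 of 29 higher, with a median of -0.02 that was 0.03 without p19Arf+IFNbeta replicate 4. Their arms ran opposite ways, with 24 of 29 higher and a median of 0.06 without p19Arf, and 4 of 29 higher and a median of -0.13 with it, a contrast not tested for the list. Of all genes, 44.2% were higher without p19Arf and 46.9% with it. Hair follicle keratins were higher in 0 of 14 members, with a median of -0.10 that was -0.04 without eGFP replicate 5. Epidermal genes had a median of 0.09, which was -0.18 without IFNbeta replicate 3. Gene lists of NK cells, endothelium, dendritic cells, mast cells and adipocytes had medians of 0.14, 0.06, -0.01, -0.02 and 0.11. The defining NK cell markers Ncr1 and Klrb1c differed by -0.02 and -0.06. The NK cell median was 0.02 without p19Arf+IFNbeta replicate 1, and the endothelial median was 0.02 without p19Arf replicate 2. The medians of the chemokine, macrophage, clock, tumor and epithelial, dendritic cell and mast cell lists, all within 0.02 of 0, took either sign when single arrays were left out, between -0.07 and 0.05.

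**Figure D5:**
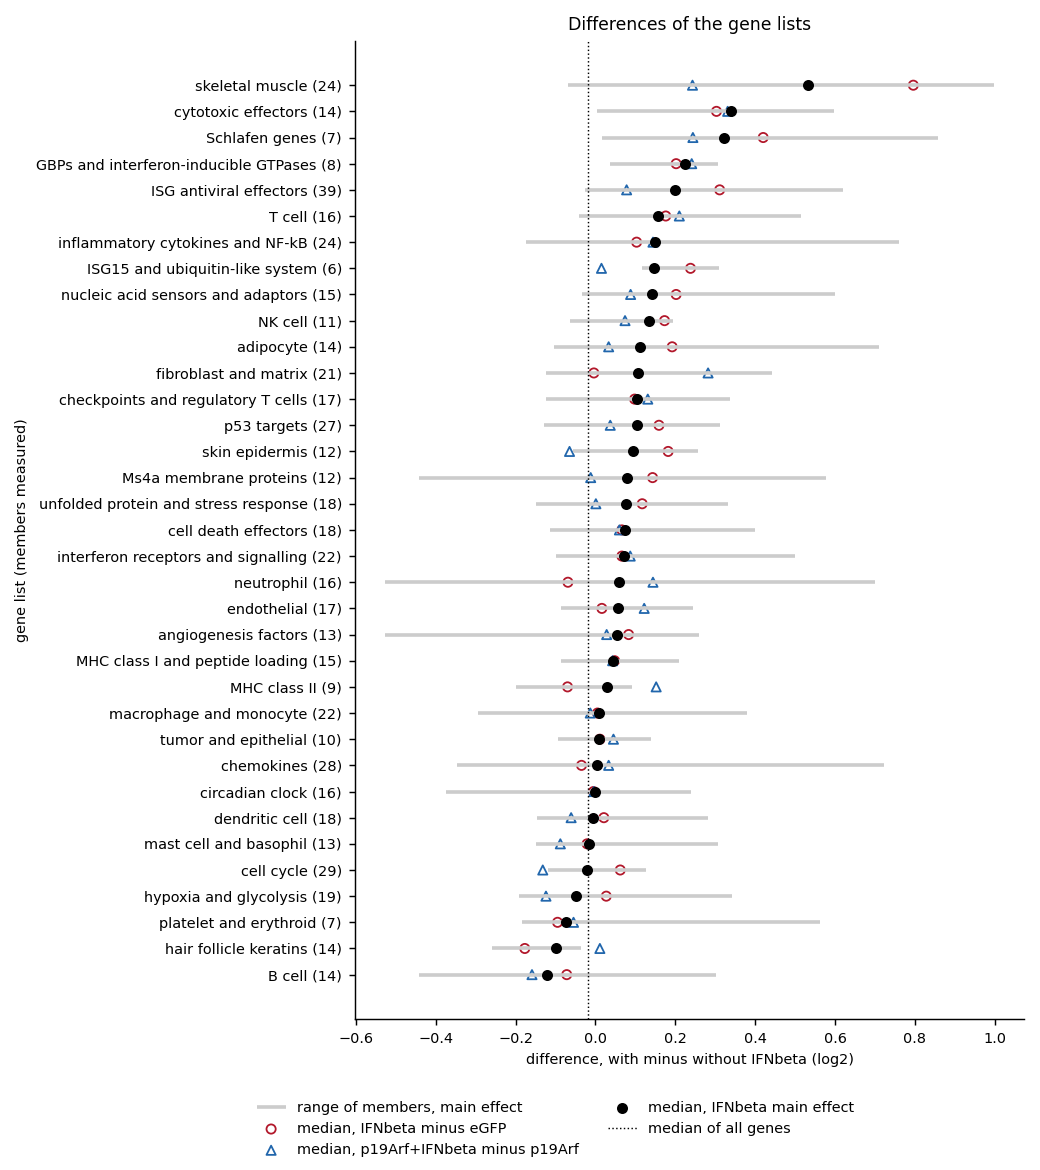
Median difference (x axis, log2, with minus without IFNbeta) of 35 gene lists (y axis, number of measured members in brackets); black points are the IFNbeta difference over all 20 arrays, open circles IFNbeta minus eGFP, open triangles p19Arf+IFNbeta minus p19Arf, and grey lines the range of members. Skeletal muscle has the highest median at 0.53, and the ISG lists lie to the right of the dotted median of all genes.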

How the data were processed

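RNA of 20 tumors was hybridised to 1-colour Affymetrix arrays, from 5 µg total RNA extracted with Trizol. The authors deposited 1 table of log2 expression values for 35556 probe sets, and the log base was read from the value range (2.33 to 14.7). Affymetrix Expression Console and GCOS were named per the submitters' processing notes; no source used here gives the normalization method. Of the probe sets, 21789 name 1 gene symbol, 1621 several and 12146 none in the platform annotation. The probe set with the highest mean over all 20 arrays stood for each of 19938 genes. Scanner files were not used here, so background and detection could not be set. The number of arrays limits the precision.

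The IFNbeta difference was fitted with limma 3.58.1 (R 4.3.3, lmFit and eBayes) with p19Arf as a covariate and 17 residual degrees of freedom. The differences within each arm and their interaction came from 1 mean per vector. P-values were adjusted by Benjamini-Hochberg over all genes, with a threshold of 0.05. The fits were tested on simulated data. No p was computed for a list. Members and lists were chosen with earlier results of these data known.

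Genes were named by rule: the vector genes, the 12 genes of smallest p in each direction (predicted, olfactory, vomeronasal and small RNA genes left out), up to 4 members of smallest p in each list, defining cell type markers, and the ISG and receptor lists. Genes outside the rule are said to be named after their values were seen. Alternatives covered array weights, quantile and median scaling, a block on replicate number, covariates for array spread and muscle, a filter on low values, probe set averaging, trended fits and leaving out each array.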

Additional observations from a re-analysis of the deposited data

Results flagged for a closer look

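In 212 groups of 10 arrays (the genes and list means reported here, with and without IFNbeta), 24 had a lowest or highest array whose gap to the next, divided by the range, was above 0.466. Chance alone gives such a gap in about 1 of 20 groups.

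IFNbeta replicate 3 was the highest array with IFNbeta for Phf11d (9.96, next 9.11), Ifit3b (7.45, next 6.54), Mx1 (9.07, next 7.94), Oas2 (11.64, next 10.97), Trim30a (11.65, next 11.25), Irf7 (11.17, next 10.48) and the epidermal list mean (9.04, next 6.91). IFNbeta replicate 4 was lowest for Tas2r105 (3.99), and IFNbeta replicate 5 highest for the mean of cell death effectors (9.72). P19Arf+IFNbeta replicate 1 was highest for Cd8b1 (9.49) and the fibroblast and matrix mean (10.52). P19Arf+IFNbeta replicate 5 was lowest for Gpnmb (8.77).

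Among tumors without IFNbeta, p19Arf replicate 2 was highest for Mx1 (8.19), Tyk2 (10.03), Stat2 (10.71), Arntl (8.80) and Ciart (8.39) and lowest for Ifnb1 (5.61). P19Arf replicate 4 was lowest for Trim30d (8.14), Cd163 (6.70) and Per3 (8.03) and highest for Atp13a4 (6.75). P19Arf replicate 5 was lowest for Ms4a4d (6.99). The epidermal list mean was highest in eGFP replicate 5 (7.39).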

How the results depend on the processing

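No gene passed for the IFNbeta difference without array weights, under quantile scaling, median centring, trended and robust fits, the array spread or muscle covariates, the filter on low values or the other planned settings, and leaving out each array gave 0 to 0 genes. Array weights gave 89 genes (74 higher, 15 lower), and 5 for IFNbeta without p19Arf; the cause was not tested. With p19Arf, and for the interaction, 0 genes passed under every setting run. The count at unadjusted p under 0.05 was 1024, 579 higher and 445 lower. It was 3944 with array weights (1353 higher, 2591 lower) and 1858 with array spread as a covariate (826 higher, 1032 lower). It was 467 with the muscle covariate (353 higher, 114 lower) and 648 with the filter on low values (507 higher, 141 lower, fewer genes tested). Leaving out an array gave 701 (without p19Arf replicate 4) to 2151 (without p19Arf replicate 2). Ifnb1 turned to -0.0307 with array weights and Cdkn2a to 0.034 with the muscle covariate; neither was called. With the replicate number as a block, 0 genes passed (smallest adjusted p 0.267) and 931 had an unadjusted p under 0.05. Deviations from the vector means had a mean correlation of -0.05 over 30 pairs of same-numbered arrays (-0.624 to 0.657). Over 120 other pairs it was 0.02 (-0.705 to 0.763), and 3 of 20 arrays correlated best with their own number. The numbers are replicate numbers of the titles, and such values cannot show whether arrays shared an animal, day or batch. A tumor number also recorded for each array often differed from the replicate number, such as 9 for eGFP replicate 3 and IFNbeta replicate 5. Pairing by tumor number was not tested. The block changed no other call. Without scanner files, signal over background is unknown, which limits what can be said of genes of low value.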

Other observations

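Of 12146 probe sets with no gene symbol listed, 302 (2.49%) were higher and 227 (1.87%) lower in tumors with IFNbeta at unadjusted p under 0.05. Among 1621 probe sets with several symbols, these were 27 (1.67%) and 46 (2.84%), and among those with 1 symbol 569 (2.61%) and 411 (1.89%). No probe set passed the adjusted threshold in a limma fit over all 35556.

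Rny1, a small cytoplasmic RNA of the Ro particle named after its value was seen, was 7.88, 8.29 and 8.64 in tumors with IFNbeta, against 8.26, 8.85 and 9.88 in tumors without it. Its difference was -0.63 (SE 0.15, limma adjusted p = 0.476). Plac8, a gene of myeloid and plasmacytoid cells also named after its value was seen, was 9.52, 10.02 and 11.03 in tumors with IFNbeta, against 8.61, 9.38 and 10.58 in tumors without it.

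Fcrl5, an Fc receptor-like gene of B cells, differed by 0.66 (SE 0.14) without p19Arf and -0.05 (SE 0.14) with it. Its interaction was -0.71 with an unadjusted p of 0.00173 and an adjusted p of 1 (limma). Its level was 7.46 ± 0.31 in IFNbeta tumors and 6.80 ± 0.17 in eGFP tumors, against 6.81 ± 0.24 in p19Arf+IFNbeta tumors and 6.86 ± 0.21 in p19Arf tumors (SD, n = 5 each).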
